A study of Mus musculus with 10 samples.

Results

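The genes of the Notch ligands were examined for peaks of RBPJ, the DNA-binding factor that carries the Notch signal to the genome. The 6 genes were Jag1, Jag2, Dll1, Dll3, Dll4 and Dlk1, and a peak was assigned to a gene when its centre lay in the gene body or in the gene's regulatory domain. A domain ran from 5 kb upstream to 1 kb downstream of the transcription start site (TSS) and was then extended on both sides to the domains of the neighbouring protein-coding genes, by at most 1 Mb. By this rule 9 of the 11094 RBPJ peaks belonged to 5 of the 6 ligand genes.

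The study profiled RD1 cells, which the labels describe as brain pericytes of the mouse, by chromatin immunoprecipitation and sequencing (ChIP-seq). It holds 10 samples in 5 groups of 2 replicates, with antibodies against RBPJ, H3K4me1, H3K4me3 or H3, or with 10% input chromatin and no antibody. All were untreated cells grown in pericyte medium on collagen I, of a single cell line, and no knockout or ligand-stimulated group was among them. By the study's methods, its primary brain pericytes were cultured from mice homozygous for a floxed Rbpj allele, which Cre can delete. Positions of RBPJ peaks were used from both RBPJ replicates, whose files were the same to the last byte and therefore count as 1 list without a spread between replicates. Histone and input samples, 8 in number, were not analysed here. The list gives positions only, so that a site was either present or absent, the height of a peak and the sequencing depth were unknown, and the label of the cells could not be checked against marker genes.

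Notch ligands are membrane proteins on the signal-sending cell that bind Notch receptors on its neighbour, and their pull on the receptor leads to its cleavage. The freed intracellular domain enters the nucleus and joins RBPJ on DNA, and without it RBPJ can recruit repressors to the same sites. In blood vessels, Jag1 connects endothelium and mural cells through Notch3, and Dll4 acts in arterial and tip endothelial cells. RBPJ recognizes the core TGGGAA, most strongly within CGTGGGAA or TGTGGGAA, so that a preceding G (GTGGGAA) marks the closer match.

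The sequences of the 5 ligand peaks under 350 bp are shown first, because in intervals this short the position of the core relative to the peak can be read directly. They are printed from GRCm38 on the plus strand, and capitals mark TGGGAA or, where the core lies on the minus strand, its reverse complement TTCCCA. Each peak is named by its gene and by the distance of its centre from the TSS in kb, with upstream distances negative. The peak Jag1 -320 is chr2:137436227-137436446, Jag1 -727 is chr2:137844048-137844190, Dll4 +1.6 is chr2:119327267-119327545 and Dlk1 -16 is chr12:109436298-109436472. Of the peak Jag1 +67 (chr2:137049408-137049748) the central 300 bases are given, chr2:137049429-137049728.
Jag1 +67: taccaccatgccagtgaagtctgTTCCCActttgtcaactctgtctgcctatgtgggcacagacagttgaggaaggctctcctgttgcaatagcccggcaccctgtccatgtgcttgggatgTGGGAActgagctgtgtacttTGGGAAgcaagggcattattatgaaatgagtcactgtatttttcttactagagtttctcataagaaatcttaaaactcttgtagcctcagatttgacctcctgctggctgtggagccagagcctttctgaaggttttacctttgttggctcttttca
Jag1 -320: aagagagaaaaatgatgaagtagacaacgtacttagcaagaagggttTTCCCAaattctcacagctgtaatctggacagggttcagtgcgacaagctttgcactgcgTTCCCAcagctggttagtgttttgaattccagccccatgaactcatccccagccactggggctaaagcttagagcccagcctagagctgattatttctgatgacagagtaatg
Jag1 -727: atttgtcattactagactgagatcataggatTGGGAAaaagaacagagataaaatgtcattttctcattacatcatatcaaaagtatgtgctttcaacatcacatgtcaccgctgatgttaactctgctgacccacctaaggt
Dll4 +1.6: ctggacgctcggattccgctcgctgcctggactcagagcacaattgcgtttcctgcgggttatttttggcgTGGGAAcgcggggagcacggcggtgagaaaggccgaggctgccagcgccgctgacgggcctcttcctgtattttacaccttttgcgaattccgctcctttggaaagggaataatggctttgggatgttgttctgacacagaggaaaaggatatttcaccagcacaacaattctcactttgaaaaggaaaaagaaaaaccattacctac
Dlk1 -16: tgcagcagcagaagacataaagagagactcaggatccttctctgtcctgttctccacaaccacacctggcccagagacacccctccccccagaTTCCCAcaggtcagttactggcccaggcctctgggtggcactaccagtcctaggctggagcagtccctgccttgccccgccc

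All 5 short peaks held the core, and in 4 of them at least 1 copy was preceded by G. In Jag1 -320 the copy nearest the centre read TGTGGGAA on the minus strand, and its midpoint lay 0.5 bp from the peak centre. Dlk1 -16 also held TGTGGGAA, 8.5 bp from the centre. In Jag1 +67 the nearest copy, 3.5 bp from the centre, was preceded by T, and a TGTGGGAA on the same strand was separated from it by 15 bp. Dll4 +1.6 held CGTGGGAA 65.5 bp from the centre. Jag1 -727 held a single ATTGGGAA at 37.5 bp, without the preceding G.

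Taking all 9 ligand peaks by position, 2 lay at a protein-coding TSS and 7 did not. The Jag2 peak was also centred within 1 kb of a start when those of non-coding transcripts were counted. The peaks at Jag1 and Dll1 had their centres within 1 kb of a protein-coding TSS, a class that held 49.5% of all peaks. Distances of the other 7 centres from the TSS of their ligand gene ran from 1622 bp to 727 kb. Among the genes, 5 of 6 had a peak, whereas 46.2% of the 21938 protein-coding genes had one. A peak in the basal domain, from 5 kb upstream to 1 kb downstream, was present for 2 of 6 ligands and for 27.9% of all genes. Since domain length differs between genes by orders of magnitude, each ligand with a peak was also set beside genes of like domain length, as given below. At the mean peak density of their chromosomes, the 6 domains together would hold 11.1 peaks, against the 9 found.

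**Figure D1:**
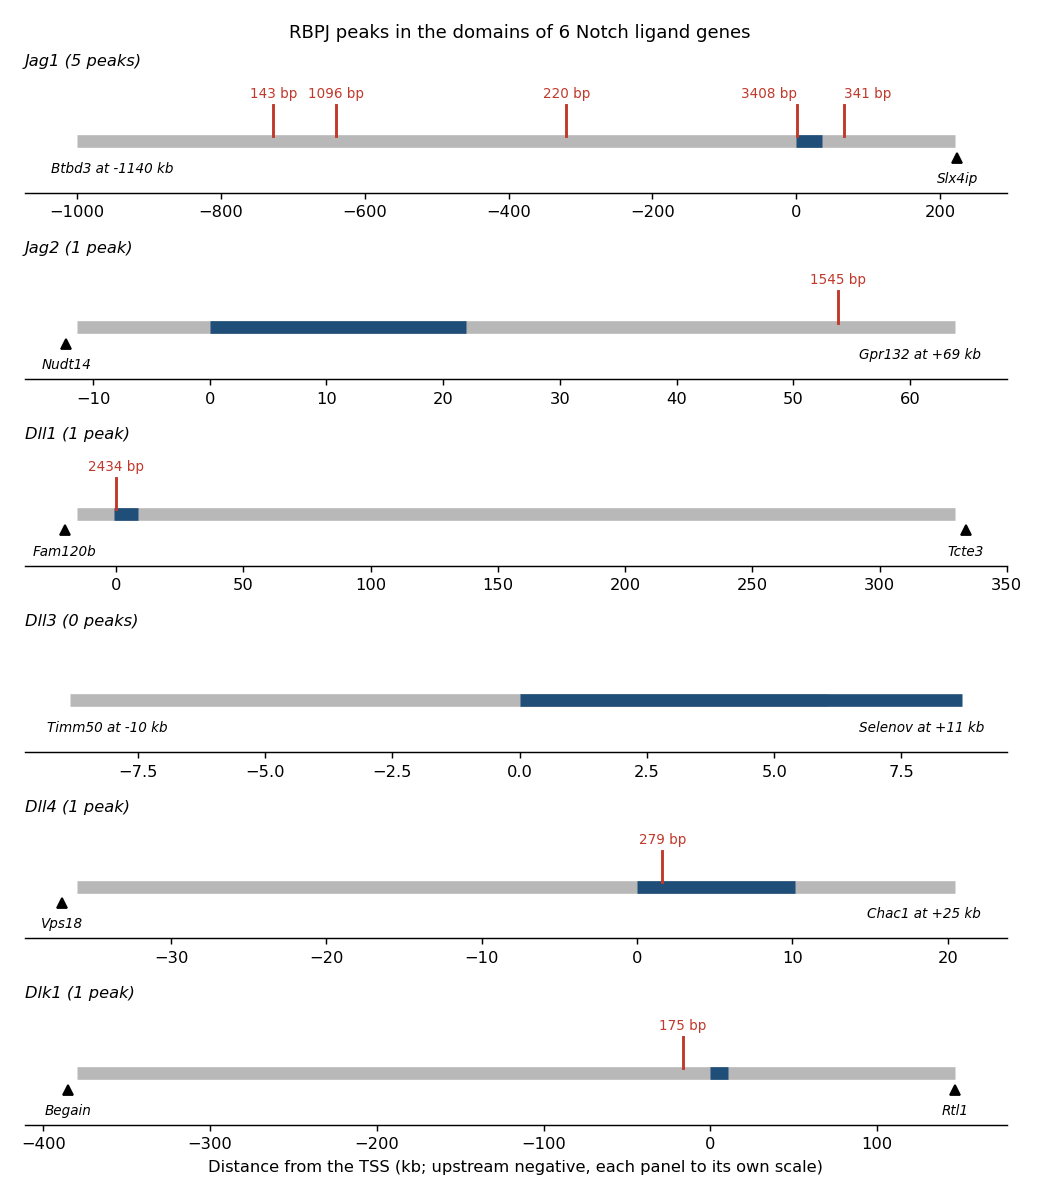
RBPJ peaks along the domains of the 6 ligand genes, with distance from the TSS in kb on the x axis, each panel to its own scale. Grey bars are domains, blue bars gene bodies, red lines peak centres with the peak width in bp, and black triangles the TSSs of neighbouring genes (written at the edge where they lie outside the panel). Jag1 had 5 peaks, Jag2, Dll1, Dll4 and Dlk1 had 1 each, and Dll3 had 0.

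Jag1, the Jagged ligand with the best known role in vascular mural cells, carried 5 of the 9 peaks. The gene (ENSMUSG00000027276) lies on the minus strand of chr2:137081456-137116644, and its domain spans 1220 kb, because the nearest upstream coding neighbour, Btbd3, starts 1140 kb away. At least 5 peaks were found for 464 genes (2.12% of all), but a domain at least as long was found for 2.36%. At the mean density of chromosome 2, 5.58 peaks per Mb, a stretch of this length would hold 6.81 peaks. For the other domains the same reckoning gave 2.03 peaks at Dll1, 1.67 at Dlk1, 0.315 at Dll4, 0.239 at Jag2 and 0.0149 at Dll3. Of the 3 genes on that chromosome with the nearest domain lengths, Kcna4 had 1 peak, Rprm had 2 and Cbln4 had 0. The number at Jag1 was therefore above those of the 3 genes of like length and below that given by the density of its chromosome.

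At the start of Jag1 itself, chr2:137114219-137117626 was called as a peak of 3408 bp, which put it at percentile 95.6 of the widths in the list. It reached from 982 bp upstream to 2425 bp downstream of the TSS, and its centre fell in intron 1. The interval was rich in CpG, with 249 CpG dinucleotides and a GC content of 62.3%. It held 5 copies of TGGGAA, of which 1 was preceded by G, but none lay in the central 200 bp and the nearest was 286.5 bp from the centre. Among all peaks within 10% of its width, 96.5% held TGGGAA and the median was 4 copies. This peak alone of the 5 lay in the domain of no other protein-coding gene.

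The other 4 peaks of Jag1 were far from any coding TSS. Jag1 +67 lay 67066 bp downstream of the Jag1 TSS, beyond the 3′ end of the gene and inside intron 6 of Slx4ip, and both genes' domains contained it. It was 341 bp wide with 3 copies of TGGGAA, of which 2 were preceded by G, whereas 51.8% of peaks of like width held any copy and 20.1% held GTGGGAA. A site for AP-1, TGACTCA, was found in this peak as the only one in the 9 ligand peaks, against 24.8% of all peaks. Upstream, Jag1 -320 was intergenic, 148 kb from the nearest start of a lincRNA gene, and its neighbouring peaks were 319 and 320 kb away. It was 220 bp wide (percentile 6.02), with 2 copies of the core.

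Jag1 -640 (chr2:137756347-137757442, 1096 bp) lay in the lincRNA gene Gm14064, and Jag1 -727 (143 bp) was intergenic. Both were nearer to the start of Btbd3, at 500 and 412 kb, than to that of Jag1. Jag1 -727 was among the narrowest peaks of the list (percentile 0.451) and among the poorest in GC (36.4%, percentile 0.532, where the median of all peaks was 55.8%). Each of these 2 peaks held 1 TGGGAA and no GTGGGAA. They were the only ligand peaks without the G, and they were also the 2 farthest from the gene they were assigned to.

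Jag2, the second Jagged ligand, had a single peak, chr12:112875197-112876741, 53807 bp downstream of its TSS and past the end of the gene (ENSMUSG00000002799, minus strand, chr12:112907819-112929776). The peak was 1545 bp wide and its centre was 155 bp from the start of the lincRNA gene 1700127F24Rik. The nearest coding gene was Gpr132, with its principal TSS 15017 bp from the peak centre, so assignment to Jag2 rested on the extended domain. With the starts of all protein-coding transcripts counted, the nearest was 7741 bp from the centre. No peak covered the Jag2 promoter. Of 3 copies of the core the nearest was 255.5 bp from the centre, and 1 copy, farther out, was CGTGGGAA. Of genes of like domain length on chromosome 12, Slc10a1 and Vrtn had 0 peaks and Cep170b had 1.

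Dll1 is the Delta ligand of the early nervous system, somites and marginal zone B cell niche. Its peak (chr17:15374623-15377056, 2434 bp) covered the TSS at 15375976, with the centre 137 bp downstream in exon 1, in the 5′ UTR. The gene (ENSMUSG00000014773) is on the minus strand of chr17:15367354-15376872, and the start of a lincRNA gene, A930024N18Rik, lay 839 bp from the peak centre. Like the peak at Jag1 it was a CpG-rich interval, with 176 CpG and 63.3% GC. It held 3 copies of TGGGAA, 1 of them preceded by G, and none in the central 200 bp. The rest of its domain of 345 kb had no peak, and the neighbours on the list were 333 and 46.2 kb away. Grm4, Atl2 and Lemd2, with domains of 340 to 342 kb on chromosome 17, had 3, 4 and 3 peaks.

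Dll4, the Delta ligand of arterial and sprouting endothelium, had 1 peak inside the gene (ENSMUSG00000027314, plus strand, chr2:119325784-119335962). Dll4 +1.6 was 279 bp wide, and its centre was 1622 bp downstream of the TSS in intron 3, past the 1 kb limit of the basal domain. The third intron of Dll4 is known to hold an enhancer active in arterial endothelium. The peak held 17 CpG, or 6.09 per 100 bp, at 51.3% GC, where the peaks over the Jag1 and Dll1 starts had 7.31 and 7.23 per 100 bp. Among peaks of like width 49.9% held TGGGAA and 19.9% GTGGGAA. Chac1 shared the domain that contained it. Nsfl1c, Olfr356 and Il1f9, of like domain length on chromosome 2, had 1, 0 and 0 peaks.

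Dlk1 is an imprinted gene whose product resembles the Delta ligands but lacks the DSL domain through which they bind Notch, and it is described as a non-canonical ligand. Its peak lay 16464 bp upstream of the TSS in intergenic sequence and was 175 bp wide (percentile 1.82). No other peak was nearer than 600 kb on one side and 1010 kb on the other, which made it the most isolated of the 9. It held 1 CpG at a GC content of 60.6%. The gene (ENSMUSG00000040856, plus strand, chr12:109452823-109463336) has a domain of 526 kb, and of 3 genes of like domain length on chromosome 12 Ttc7b had 2 peaks, and Twistnb and Ferd3l had 0.

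Dll3, a Delta family protein that resides mostly inside the cell and inhibits Notch signalling there, was the ligand without a peak. The gene (ENSMUSG00000003436) lies on the minus strand of chr7:28293553-28302238 and has the shortest domain of the 6, at 14.9 kb. The nearest peak, chr7:28338490-28340602, was centred 37.3 kb upstream, and the nearest coding TSS to it was that of Supt5. Chromosome 7 carried 146 peaks, or 1.0 per Mb, and 10.3% of its 2023 protein-coding genes had one, compared with 49.5% on chromosome 2, 53.7% on chromosome 12 and 52.6% on chromosome 17. The lack of a peak at Dll3 and the sparse calls over its chromosome cannot be told apart.

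**Figure D2:**
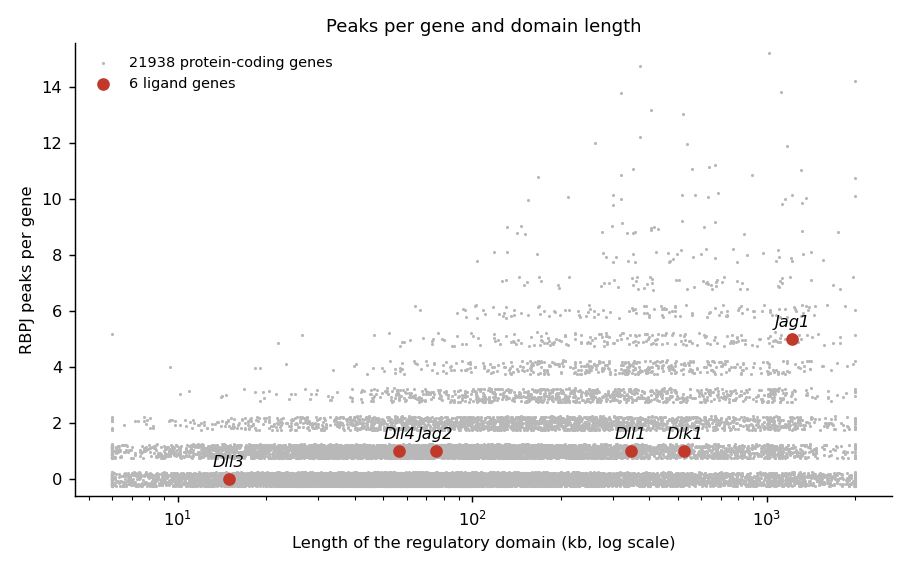
RBPJ peaks per gene (y axis) against the length of the regulatory domain in kb (x axis, log scale) for 21938 protein-coding genes in grey, shifted vertically by up to 0.25, and the 6 ligand genes in red. The 8 genes with more than 15 peaks are not drawn. Jag1 had both the longest domain of the ligands, 1220 kb, and the most peaks, and Dll3 had the shortest, 14.9 kb, and none.

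By width the ligand peaks fell into short and wide ones. The 4 wide peaks, of 1096 to 3408 bp, were the promoter peaks of Jag1 and Dll1, the Jag2 peak and Jag1 -640. The 5 short ones, of 143 to 341 bp, were 3 distal peaks of Jag1 and the peaks of Dll4 and Dlk1. No ligand peak had a width between 341 and 1096 bp, although the median of the whole list was 690 bp with quartiles of 382 and 1419 bp. The median of the 9 was 341 bp, the width of Jag1 +67. Peaks under 350 bp made up 21.4% of the list, and peaks over 1 kb made up 35.9%.

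**Figure D3:**
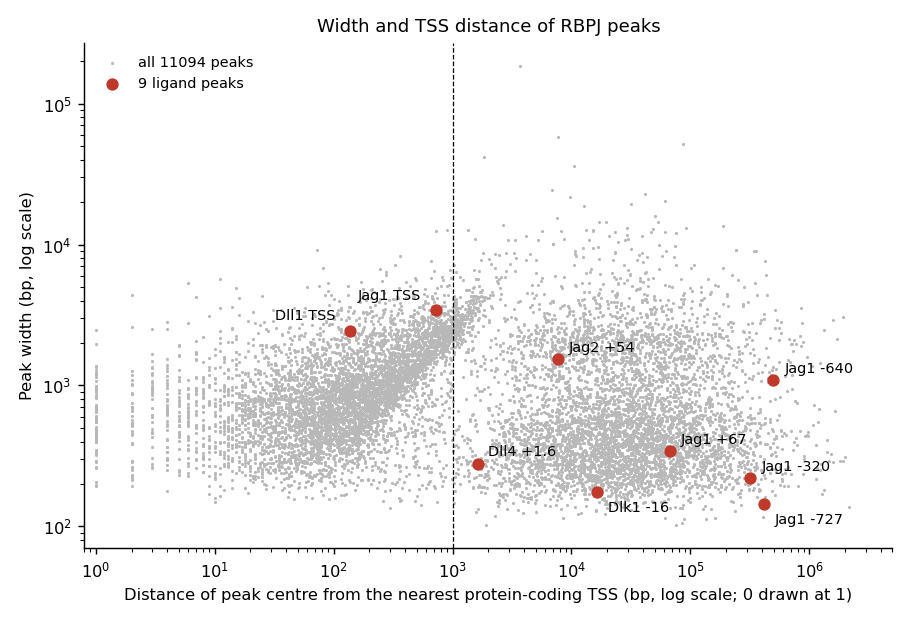
Width of each RBPJ peak in bp (y axis, log scale) against the distance of its centre from the nearest protein-coding TSS in bp (x axis, log scale), for all 11094 peaks in grey and the 9 ligand peaks in red, with the dashed line at 1 kb. The peaks at the Jag1 and Dll1 TSSs lie left of the line with widths of 3408 and 2434 bp, and 5 of the 7 peaks to its right are under 350 bp wide.

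Across the 9 ligand peaks 20 copies of TGGGAA were counted on both strands, 8 of them as GTGGGAA. The core was found in 9 of 9 peaks when whole peaks were searched, and 64.9% of all peaks held it. GTGGGAA was found in 7 of 9, against 29.3% of all peaks. In a fixed window, the central 200 bp, TGGGAA was found in 5 of 9 ligand peaks and in 25.8% of all. For GTGGGAA the values were 4 of 9 and 9.28%. These shares were not matched for width, since the window held TGGGAA in 46.6% of all short peaks and 15.5% of all wide ones. Short peaks were 5 of the 9 ligand peaks and 21.4% of the list. With 9 peaks chosen by gene the motif shares of the ligands are counts, and no test was made of them.

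The core lay nearer the centre in the short ligand peaks than in the wide ones, as the width of an interval limits this distance. All 5 short peaks held TGGGAA in the central 200 bp, compared with 46.6% of the 2377 short peaks of the list, and none of the 4 wide ones did, compared with 15.5% of the 3982 wide peaks. Copies were 6.91 per kb in the short ligand peaks, where all short peaks had 2.57 per kb, and 1.41 per kb in the wide ligand peaks, where all wide peaks had 1.12 per kb. From the centre to the nearest copy the distance was 0.5 to 65.5 bp in the short ligand peaks and 130.5 to 288.5 bp in the wide ones. The corresponding medians over all peaks with a copy were 30.5 bp (quartiles 12.5 and 59.5) and 310 bp (quartiles 138 and 522). A wide interval can be the product of merging, so that its centre need not be a bound site.

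To show the difference, 1 site from each wide peak is given as 30 bases, oriented so that the core in capitals reads 5′ to 3′. For the Jag1 TSS, Jag2 and Dll1 peaks this is the copy preceded by G, and for Jag1 -640 it is the single copy. The windows are chr2:137115113-137115142 (plus strand), chr12:112876425-112876454 (minus), chr17:15375694-15375723 (plus) and chr2:137756591-137756620 (minus).
Jag1 TSS: cctggtcgagggTGGGAActggaagtagca
Jag2 +54: catcacggagcgTGGGAAagactgcgctac
Dll1 TSS: cgaggggcgcggTGGGAAcggtggtggcaa
Jag1 -640: tcacttcaaagcTGGGAAactggatcagcc

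Of these only the Jag2 site extended to CGTGGGAA. The sites from the wide peaks over the Jag1 and Dll1 starts read GGTGGGAA. The longer forms CGTGGGAA or TGTGGGAA, counted after the sequences had been seen, were present in 4 of 5 short ligand peaks and in 1 of 4 wide ones, compared with 14.2% of all short and 24.6% of all wide peaks.

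**Figure D4:**
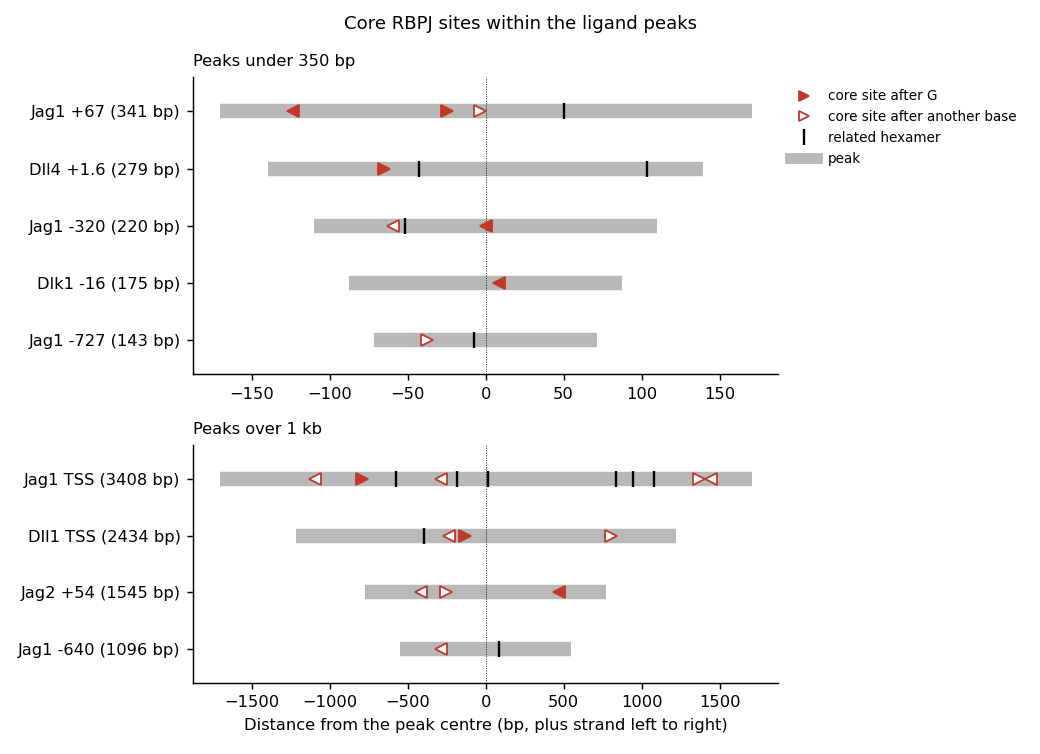
Position of core RBPJ sites within the 9 ligand peaks, with distance from the peak centre in bp on the x axis and grey bars for the peaks, short ones above and wide ones below. Red triangles are TGGGAA, pointing along the strand of the core and filled where a G precedes it, and black ticks are the related hexamer TGAGAA. In the short peaks the nearest core lies 0.5 to 65.5 bp from the centre, and in the wide peaks 130.5 to 288.5 bp.

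Arrangement and company of the sites were examined next. RBPJ complexes can dimerize on paired sites in head-to-head orientation, and pairs of TGGGAA or TGAGAA in this orientation at 11 to 21 bp were counted. There were 0 such pairs in the 9 ligand peaks. Jag1 +67 held 2 copies of TGGGAA on the same strand separated by 15 bp, and Dll4 +1.6 held TGGGAA and TGAGAA on the same strand separated by 17 bp. The hexamer TGAGAA, a weaker relative of the core, was present in 7 of 9 ligand peaks and in 45.3% of all peaks. Motifs of factors that often share enhancers with RBPJ were searched in the same way. GGAATG, bound by TEAD factors, was found in 3 ligand peaks, TGTGGT (RUNX) in 4, CCGGAA (ETS) in 2 and the E-box CACGTG in 2, while all peaks held them in 39.4, 40.0, 33.6 and 17.8%, respectively. The Jag2 peak held all 4 of these.

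Most copies of the core in the ligand domains lay outside any peak. The Jag1 domain held 1210 copies of TGGGAA, of which 12 (0.992%) were in a peak. In the domain of Jag2 3 of 90 copies were in a peak (3.33%), in that of Dll1 3 of 365 (0.822%), in that of Dll4 1 of 68 (1.47%) and in that of Dlk1 1 of 533 (0.188%). At Dll3, 16 copies were present and 0 lay in a peak. Promoter windows from RefSeq (GRCm38.p6, 250 bases before to 50 after each start) were available for all 6 genes as 7 windows, and none held TGGGAA, where 25.6% of 32817 windows did. The window of Jag1 and 1 of the 2 windows of Dll1 lay wholly inside a peak, with 22 and 24 CpG. Windows without a peak also held CpG, with 63 in that of Jag2, 17 in that of Dll4, 11 in that of Dll3 and 9 in that of Dlk1, and the median over all windows was 7.

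Sharing of peaks with neighbouring genes limits the assignment. In all, 7 of 9 ligand peaks also lay in the domain of another protein-coding gene (Slx4ip or Btbd3 for Jag1, Gpr132 for Jag2, Chac1 for Dll4 and Begain for Dlk1). For 6 of 9 the ligand had the nearest coding TSS, and the exceptions were the Jag2 peak, Jag1 -640 and Jag1 -727. The link between a distal peak and a gene was by distance only and was not measured.

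Other Notch pathway genes, in 7 lists by role, were counted by the same rule but not set beside genes of like domain length. Of 42 genes 32 (76.2%) had a peak, where 46.2% of all protein-coding genes had one, and 21 had it in the basal domain, where 27.9% of all genes did. Together they held 75 peaks, of which 5 were counted for both Egfl7 and Notch1. All 5 genes for the receptors and RBPJ itself had peaks, with 7 at Notch1, 5 at Notch3 and 3 at Rbpj. Among targets, the transcription factors and feedback inhibitors switched on by Notch, 5 of 6 had a peak and Heyl had none. Hes1 held 10, the most of any gene in the lists, in a domain of 686 kb and with 0 in the basal domain. For the machinery that endocytoses ligands and thereby makes them active, 5 of 7 had a peak, and Mib2 and Epn1 had none. Neurl1a held 8, in a domain of 301 kb and also with 0 in the basal domain.

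Enzymes that glycosylate the receptors had a peak in 3 of 5 cases, without Mfng and Rfng. Receptor cleavage, by ADAM proteases, the gamma-secretase subunits and the convertase Furin, had 8 of 9, without Psenen, and 7 of these had it in the basal domain. Psenen, with a domain of 6.0 kb, and Epn1 lie on chromosome 7, where 10.3% of protein-coding genes had a peak. Their lack of a peak and the sparse calls over that chromosome cannot be told apart. Furin, on the same chromosome, had 1 peak. Coactivators had 3 of 4, without Snw1. A further 6 proteins proposed as ligands had a peak in 3 cases, with 5 at Egfl7 that were also counted for Notch1, and Dner, Mfap2 and Mfap5 had none. Of all protein-coding genes with a peak 60.5% had one in the basal domain, and of the 5 main ligand genes with a peak 2 did, as a count without a test.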

How the data were processed

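RBPJ ChIP-seq in RD1 cells was analysed from the shared peak list of 2 samples, grouped by sample title. By the study's methods, the authors mapped reads to GRCm38 with Bowtie and removed duplicates. They ran MACS2 and PeakRanger on both replicates and joined peaks less than 2 kb apart. Regions supported by 3 or more calls were retained, and blacklisted ones were dropped. The submitters' processing notes also name FastQC, Picard, SAMtools and deepTools. What the authors deposited is 1 consensus list of intervals, each a start and an end coordinate in bp without read count, score or summit, and joining peaks widens intervals. Depth per sample was not given in the sources used here, so precision is that of counting peaks.

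Interval starts were taken as 1-based, and the centre was the midpoint. Domains were built as in GREAT (basal plus extension) over 21938 protein-coding genes of GENCODE M21, each with 1 principal TSS; 54327 starts of protein-coding transcripts gave the share of peaks near a TSS. Sequences came from the GRCm38.p6 assembly of RefSeq. Motifs were searched as exact letters on both strands, overlaps included (each GTGGGAA is also a TGGGAA, and a TTCCCA is a TGGGAA on the other strand), in whole peaks and in a fixed window of 200 bp around the centre, which runs past the ends of peaks shorter than that. Peaks of like width were within 10%.

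The 6 ligand genes, every ligand peak, the pathway genes without a peak, the neighbouring genes that share a domain and 3 genes of nearest domain length on the same chromosome were named by rule. The members and lists were chosen with earlier results of these data known. Other pathway genes named with their counts, and the forms CGTGGGAA and TGTGGGAA, were chosen after their values were seen. No test was made, since the list has no replicates. Domains, assignment and motif search were tested on simulated data. Python 3.11.15, numpy 2.4.6, pandas 2.3.3 and matplotlib 3.10.9 were used.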

Additional observations from a re-analysis of the deposited data

How the results depend on the processing

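Of 43 values recomputed under another setting, 33 moved by at most 1.5 times and 10 by more. The 33 include values that could not change. These are the ones without replicate 1 or 2, and those with peaks of at most 5 kb, since the widest ligand peak was 3408 bp. With basal domains only, 2 ligand peaks at 2 genes were left, and with gene bodies only 3 at 3. With peaks of at least 500 bp, 4 ligand peaks at 3 genes were left, 0 of them held TGGGAA in the central 200 bp, and their median width was 1989.5 bp. Within 500 bp of a TSS there was 1 ligand peak, within 5 kb or with the starts of all transcripts there were 3, and with whole peaks searched 9 held TGGGAA. An extension of at most 100 kb left 6 peaks at 5 genes (Jag1 kept 2), and assignment to the nearest gene start left 6 at 4, without Jag2. Reading starts as counted from 0, a setting added after the data were seen, gave the same counts of 9, 5 and 5. Without replicate 1 or without replicate 2 the counts were 9 peaks, 5 genes, 2 near a TSS and 5 with TGGGAA, and the median width was 341 bp, which follows from the identical files and is no check. No paired analysis was possible because the result comes from no test and both RBPJ files hold 1 list. Peak height, occupancy by replicate and depth are unknown, and so is the sequence content of sites below the calling threshold.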
